A study of Saccharomyces cerevisiae with 12 samples.

Results

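Loss of the copper transporter gene CTR1 was examined in yeast cells that carried an empty vector and grew in excess copper. The comparison sets 3 arrays of the deletion strain (Dctr1_Con) against 3 arrays of its parent (WT_Con), 6 of the 12 arrays of the study, and the arrays were picked by their sample titles. Dctr1_Con was BY4741 with CTR1 deleted and an empty vector, and WT_Con was BY4741 with an empty vector. BY4741 is a laboratory strain of Saccharomyces cerevisiae of mating type a that needs added histidine, leucine, methionine and uracil unless a plasmid supplies the missing gene. Both cultures received 0.02 mM CuCl2 in synthetic medium lacking leucine. They started at an OD600 of 0.6 and were shaken at 180 rpm and 30 °C for 7 h. The study as a whole also over-expressed CTR1 in BY4741 and the allele labelled CTR1D300 in the deletion strain, and the comparison described here asks how the deletion strain differed from its parent without over-expression. The labels do not say whether both strains held the same empty vector. The labels speak of 3 independent experiments, and they do not say whether the cultures of a strain came from separate clones or transformants.

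Ctr1 is the high-affinity copper transporter of the yeast plasma membrane. It takes up reduced copper, which metalloreductases such as Fre1 supply, and the copper-sensing activator Mac1 switches these genes on when copper is scarce. Inside the cell, chaperones hand copper to cytochrome c oxidase in mitochondria, to the superoxide dismutase Sod1 and to the multicopper oxidase Fet3 of iron uptake, while Cup2 (also called Ace1) induces the metallothioneins that bind excess copper.

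RNA of whole cultures was labelled with Cy3 and hybridised to single-colour Agilent arrays, 1 culture per array. A change in all cells of a culture and a change in some of them cannot be told apart. Signals are given as log2 of the processed spot intensity relative to the 75th percentile of the gene spots of the same array, so 0 is that percentile. Differences are log2 fold changes of Dctr1_Con over WT_Con with their standard error (SE), and adjusted p values are Benjamini-Hochberg values from limma over 6228 genes. The median processed signal ranged from 2296.9 to 2987.2 on Dctr1_Con arrays and from 1911.4 to 2604.9 on WT_Con arrays, and between 96.85% and 98.34% of probes were well above background. Pearson's r across genes lay between 0.9926 and 0.9974 for arrays of the same group and between 0.9914 and 0.9964 for arrays of different groups. The median SD of a gene was 0.102 in Dctr1_Con and 0.101 in WT_Con (log2, n = 3 each). The 95% interval of the difference lay within a change of 1 log2 unit, or 2-fold, in either direction for 6009 genes.

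All 6 arrays lay in column 1 of their slides. Slide 1 held replicate 1 of both groups and was scanned on an earlier day. Slide 3 held Dctr1_Con replicates 2 and 3 and slide 2 held WT_Con replicates 2 and 3, so for these replicates the strain and the slide cannot be told apart. The difference on slide 1 is therefore given beside the main results.

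The CTR1 probe checked the strain labels. Its log2 signal was -10.13, -9.85 and -9.96 in Dctr1_Con, against -2.52, -2.53 and -2.49 in WT_Con. No Dctr1_Con array had it well above background, and all 3 WT_Con arrays did. Set against the dimmest probes that were well above background, CTR1 was at least 110-fold lower in Dctr1_Con by the processed signal. The fitted difference was -7.47 ± 0.16 (adjusted p = 5.86e-10, limma). It ranged from -7.7 to -4.07 over the alternatives, so the bound holds for the main processing only. YPR123C, a reading frame on the opposite strand that overlaps CTR1, was at -10.00, -10.43 and -9.06 in Dctr1_Con, against -3.28, -3.46 and -3.35 in WT_Con. It was well above background on 1 of 3 Dctr1_Con arrays, so the size of its fall is uncertain. The fitted difference was -6.46 ± 0.30 (adjusted p = 1.31e-06, limma) and ranged from -7.13 to -3.17 over the alternatives.

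The other genes beside CTR1 on chromosome XVI were not called. AXL1, a protease gene of a-factor maturation, was at -0.16 ± 0.09, and YLH47, a mitochondrial inner membrane gene, was at -0.16 ± 0.12. The cyclin genes CLB2 (0.00 ± 0.11) and CLB5 (0.02 ± 0.09) were near 0. THI22, related to the kinase genes THI20 and THI21 of thiamine synthesis, lies in the same stretch and was at 0.34 ± 0.08 (adjusted p = 0.136, limma). Its Dctr1_Con arrays (-2.53, -2.44 and -2.42) all lay above its WT_Con arrays (-2.92, -2.64 and -2.85).

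The nutritional marker genes matched the strain background in both groups. HIS3, URA3 and MET17, which BY4741 lacks, were not well above background on any of the 6 arrays. LEU2, which the medium without leucine selects for, was at 5.80, 5.46 and 5.50 in Dctr1_Con, against 5.99, 5.69 and 5.88 in WT_Con. The groups overlapped, and the difference was -0.26 with a 95% interval from -0.83 to 0.30 (adjusted p = 0.922, limma). All 7 a-cell genes were well above background on all 6 arrays. So were all 6 alpha-cell genes, so this measure does not tell the mating types apart. STE2 was at -0.10 ± 0.09, STE6 at 0.00 ± 0.09 and BAR1 at -0.03 ± 0.13. MFA1 (-0.32 ± 0.16), ASG7 (-0.13 ± 0.11), MFA2 (-0.12 ± 0.12) and AGA2 (-0.11 ± 0.07) lay lower. In all, 6 of 7 a-cell genes lay below 0 (median -0.11), against 58.3% of all genes. Of the 6 alpha-cell genes 5 lay above 0 (median 0.11). None of 7 a-cell and none of 6 alpha-cell genes was called by limma. At an unadjusted p under 0.05, 1 of these 13 genes was higher, against 2.31% of all genes. It was HMLALPHA1, which shares sequence with MATALPHA1.

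Over the whole array, 30 of 6228 genes (0.482%) passed an adjusted p of 0.05, and 505 had an unadjusted p under 0.05 (2.31% of all genes higher and 5.80% lower). Of the called genes, 20 (0.321% of all genes) were higher and 10 (0.161%) were lower in Dctr1_Con. After quantile normalisation 26 were called, 20 higher and 6 lower. The 3 arrays of Dctr1_Con all lay above those of WT_Con for 269 genes (4.32%) and all below them for 644 genes (10.3%), and after quantile normalisation for 6.41% and 7.59%. The median difference over all genes was -0.02. Of the 20 genes that rose, 16 belong to the 40 genes of the thiamine and vitamin B6 lists, where none fell. The plot of called genes by array shows these values. THI5, THI11, THI12 and THI13 are near-identical, as are SNZ2 and SNZ3, and SNO2 and SNO3. Their probes may share signal, so the 16 are not all separate measurements. The lists were also written with earlier results of these data known.

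**Figure D1:**
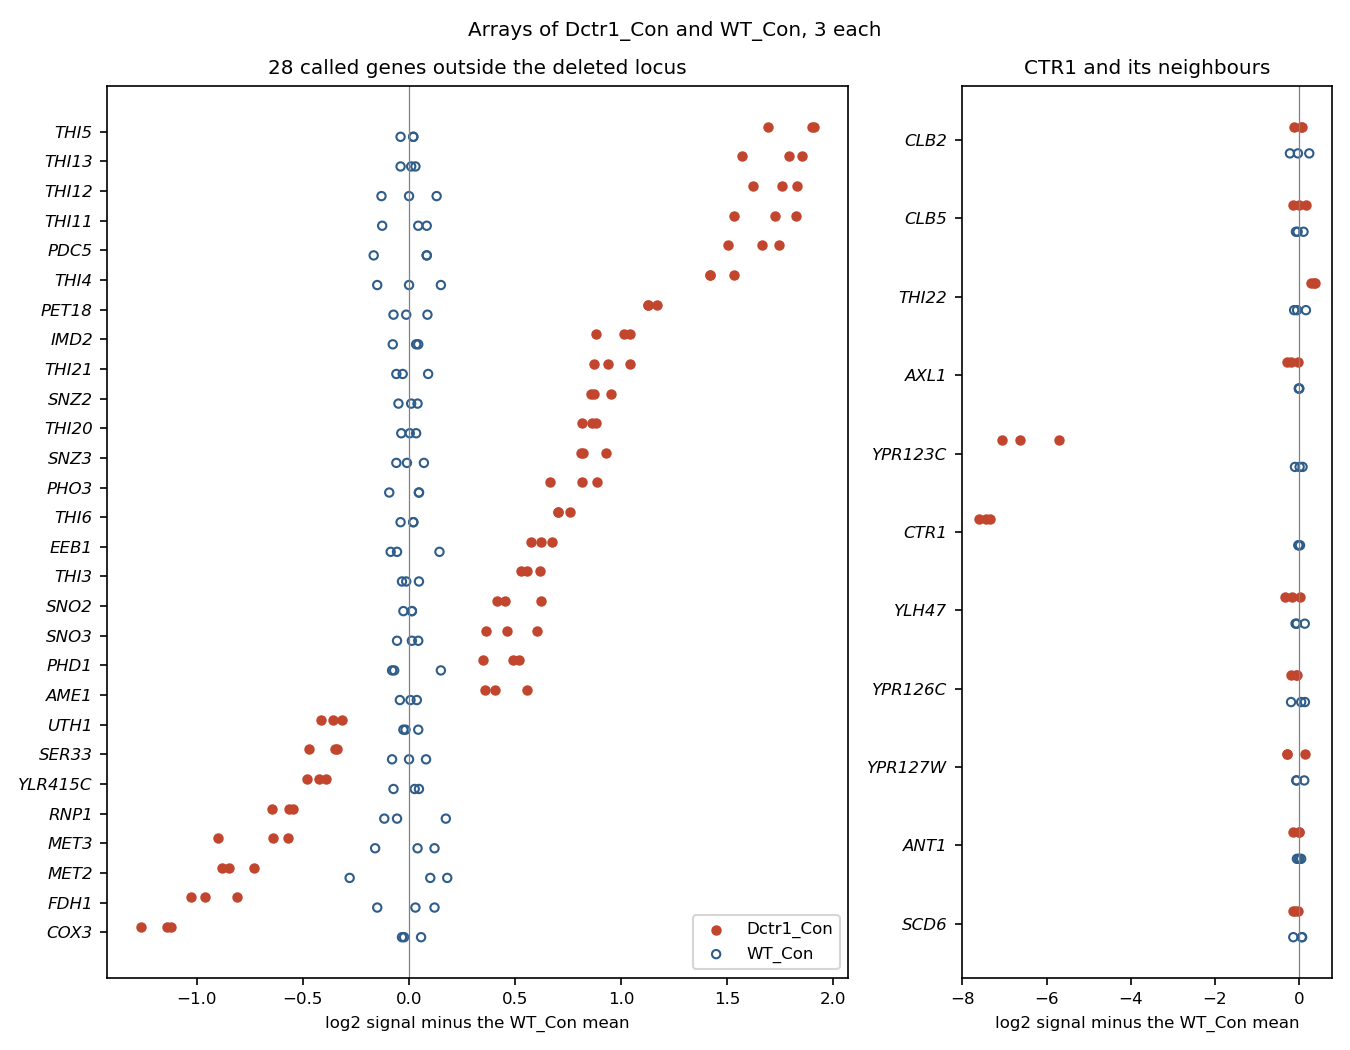
Log2 signal of each array minus the mean of the 3 WT_Con arrays (x axis, log2 units) for the 28 called genes other than CTR1 and YPR123C (left) and for CTR1 and its neighbours in chromosomal order (right). Filled points are the 3 Dctr1_Con arrays and open points the 3 WT_Con arrays. The groups do not overlap in any of the 28 genes and CTR1 and YPR123C lie far below WT_Con. The CTR1 points of Dctr1_Con are not well above background, so their distance is not a measured fold.

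**Figure D2:**
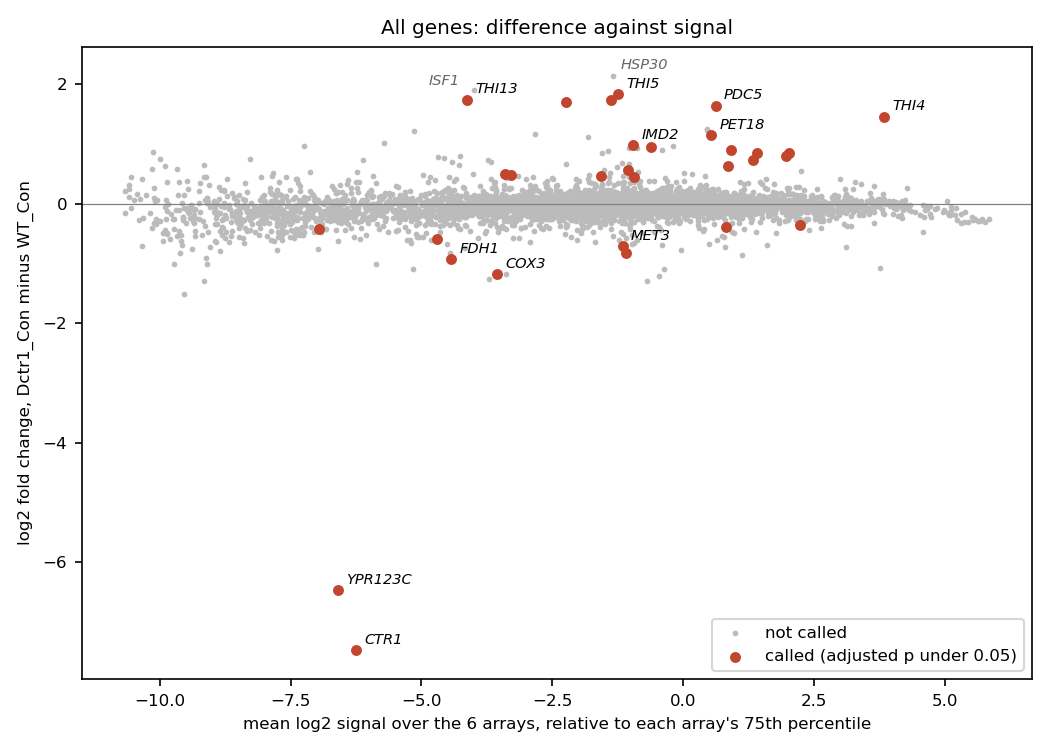
Log2 fold change of Dctr1_Con over WT_Con (y axis) against the mean log2 signal of the 6 arrays relative to the 75th percentile (x axis), 1 point per gene. Coloured points are the 30 called genes. HSP30 and ISF1, in grey, differ by 2.14 and 1.91 and were not called.

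Thiamine synthesis genes were the largest group among the rises, with 8 of the 20. Yeast builds thiamine from a pyrimidine and a thiazole part, joins them and adds a diphosphate, and cells switch the pathway on when thiamine is short. Of 10 measured synthesis genes 8 rose and none fell. Without slide 1, 6 of the 10 were called. Their median difference was 1.20, against -0.02 over all genes, and it was 1.26, 1.11 and 1.20 within replicate numbers 1, 2 and 3. In 9 of the 10 genes every Dctr1_Con array lay above every WT_Con array, against 4.32% of all genes. These counts and medians take the near-identical THI5, THI11, THI12 and THI13 singly, though their probes may share signal.

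The pyrimidine part comes from the near-identical enzymes Thi5, Thi11, Thi12 and Thi13, whose probes may share signal, so single genes of this family are uncertain. THI5 was at -0.47, -0.25 and -0.26 in Dctr1_Con, against -2.20, -2.14 and -2.14 in WT_Con. The Dctr1_Con arrays all lay well above the WT_Con arrays, and THI5 rose by 1.83 ± 0.13 (3.56-fold, adjusted p = 4.4e-05, limma). THI12 (1.74 ± 0.15), THI13 (1.74 ± 0.17) and THI11 (1.70 ± 0.13) rose by similar amounts.

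The thiazole part is made by Thi4, which gives up a sulfur atom of its own in the reaction. THI4 was at 4.65, 4.54 and 4.54 in Dctr1_Con, against 2.97, 3.27 and 3.12 in WT_Con. No array of Dctr1_Con reached down to WT_Con, and THI4 rose by 1.45 ± 0.18 (2.74-fold, adjusted p = 0.00284, limma). Without slide 1 its difference was 1.34 and its call was lost (adjusted p = 0.0668, limma).

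Genes of the later steps rose less. THI21, a kinase of the pyrimidine part, was at -0.21, -0.04 and -0.14 in Dctr1_Con, against -1.11, -0.99 and -1.14 in WT_Con, and rose by 0.95 ± 0.08. THI20, its close relative, rose by 0.85 ± 0.15 (adjusted p = 0.0309, limma), a call that leaving out any 1 of the 6 arrays ended. Its SD was 0.03 in Dctr1_Con and 0.04 in WT_Con, against 0.38 in the CTR1D300 group, which the fit also uses. With the 6 arrays fitted alone THI20 kept its call. THI6, which joins the pyrimidine and thiazole parts, was at 1.67, 1.73 and 1.67 in Dctr1_Con, against 0.93, 0.99 and 0.99 in WT_Con. The groups were far apart relative to their spread, and THI6 rose by 0.72 ± 0.07 (1.65-fold, adjusted p = 3.74e-04, limma). Without slide 1 its difference was 0.71 and its call was lost (adjusted p = 0.062, limma). THI80, which adds the diphosphate, was at 0.24 ± 0.11 with overlapping groups (adjusted p = 0.597, limma).

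Genes of thiamine transport and regulation followed in part, with 3 of 10 higher, none lower and a median of 0.53. With slide as a fixed block the median was 0.22 and 2 were called. PET18, a gene of the thiamine response whose protein has no settled role, was at 1.09, 1.13 and 1.09 in Dctr1_Con, against -0.05, 0.05 and -0.11 in WT_Con. The spread within each group was a small part of the gap, and PET18 rose by 1.14 ± 0.07 (2.21-fold, adjusted p = 2.54e-05, limma). PHO3, an acid phosphatase that frees thiamine from its phosphates outside the cell, was at 2.25, 2.47 and 2.40 in Dctr1_Con, against 1.63, 1.49 and 1.63 in WT_Con. It rose by 0.79 ± 0.13 (adjusted p = 0.025, limma), a call that leaving out any 1 of the 6 arrays ended. PHO3 kept its call with the 6 arrays fitted alone. On slide 1 its difference was 0.62, the smallest share of the overall value among the called genes.

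THI3, a regulator of the thiamine genes, rose by 0.57 ± 0.07 (adjusted p = 0.0031, limma). Without slide 1 its difference was again 0.57, and its call was lost (adjusted p = 0.062, limma). Its partner THI2 was at 0.52 ± 0.15 (adjusted p = 0.265, limma) with groups that did not overlap. PDC2, a further activator of these genes, was at -0.04 with a 95% interval from -0.20 to 0.13. The plasma membrane thiamine transporter gene THI7 was at 0.54 ± 0.21 and the permease gene THI73 at 1.24 ± 0.32, and neither was called (adjusted p = 0.472 and 0.198, limma). THI73 was at 0.69, 1.25 and 1.32 in Dctr1_Con, against -0.56, 0.27 and -0.17 in WT_Con. The groups did not overlap, but arrays within each group lay well apart.

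Of 10 genes for enzymes that use thiamine diphosphate, PDC5 alone was called. PDC5, a pyruvate decarboxylase gene known to rise when thiamine is short, was at 1.31, 1.55 and 1.47 in Dctr1_Con, against -0.36, -0.11 and -0.11 in WT_Con. It rose by 1.64 ± 0.14 (3.11-fold, adjusted p = 1.01e-04, limma) and by 1.68 on slide 1. PDC1, the major pyruvate decarboxylase gene, was at -0.31 with a 95% interval from -0.68 to 0.07, and PDC6 was at -0.07 (-0.31 to 0.18). The median of the list was -0.06.

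Vitamin B6 genes changed in 2 of their 3 paired families. Snz proteins make pyridoxal phosphate with Sno partners that supply ammonia from glutamine, and pyridoxal phosphate feeds the pyrimidine part of thiamine. Of 10 genes 4 rose, none fell and the median was 0.09. Without slide 1, and also with slide as a fixed block, 2 were called, and the median was 0.21 with that block. SNZ2 was at 1.34, 1.43 and 1.35 in Dctr1_Con, against 0.52, 0.49 and 0.43 in WT_Con, and rose by 0.90 ± 0.07 (1.86-fold, adjusted p = 7.12e-05, limma). SNZ3 rose by 0.85 ± 0.07, SNO2 by 0.49 ± 0.07 and SNO3 by 0.48 ± 0.08. The copies 2 and 3 of each gene are near-identical and uncertain as single genes. Without WT_Con replicate 1 the calls of both SNO genes were lost. That of SNO2 was lost in 6 of 22 alternatives and that of SNO3 in 11, among them every left-out array but Dctr1_Con replicate 1. SNZ1 was at 2.18, 2.41 and 2.16 in Dctr1_Con, against 2.30, 2.70 and 2.53 in WT_Con, with overlapping groups, and its difference of -0.26 had a wide 95% interval (-1.03 to 0.51). SNO1 was at -0.35 (-1.23 to 0.54). The SDs of SNZ1 (0.14 in Dctr1_Con, 0.20 in WT_Con) and of SNO1 (0.14 in each) were small beside these intervals. The intervals also hold the spread of the other groups of the study.

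These genes also lie side by side. In the gene order of a RefSeq table, SNO3, SNZ3 and THI5 are direct neighbours on chromosome VI, and SNO2, SNZ2 and THI12 are direct neighbours on chromosome XIV. These 6 genes were the only called genes of the 29 placed on a chromosome that had a called direct neighbour. The 49 direct neighbours that were not called had a median difference of -0.04 and ranged from -1.29 for YOR387C, beside FDH1, to 0.45 for the acid phosphatase gene PHO12, beside IMD2. THI11 lies between AAD10 (0.07) and HXT16 (-0.22), and THI13 between HXT15 (-0.32) and AAD4 (-0.06). PHO5, the phosphate-regulated acid phosphatase gene beside PHO3, was at -0.29 (adjusted p = 0.314, limma).

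**Figure D3:**
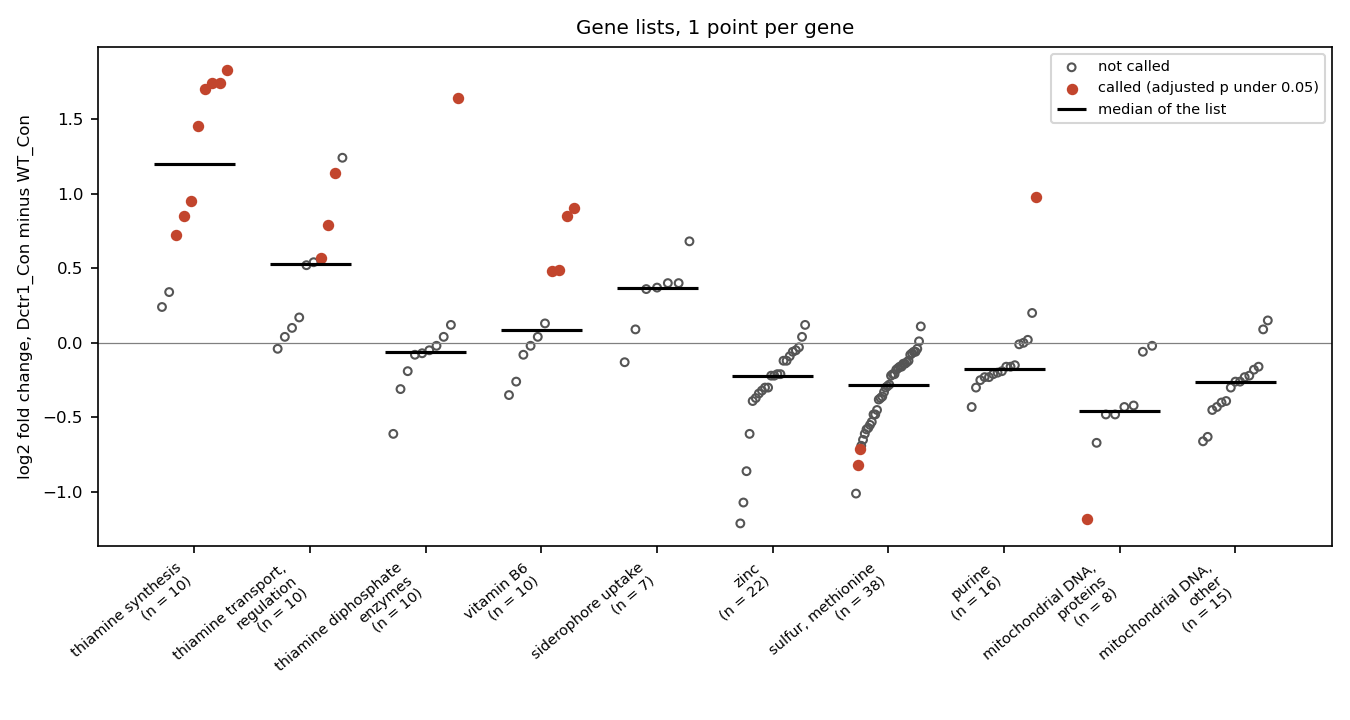
Log2 fold change of Dctr1_Con over WT_Con (y axis) for the genes of 10 lists (x axis, number of genes in brackets), 1 point per gene and a bar at the median. Filled points are called genes. All 10 thiamine synthesis genes lie above 0, 36 of 38 sulfur and methionine genes and 20 of 22 zinc genes lie below 0.

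Genes of sulfur assimilation and methionine synthesis lay on the low side. These pathways reduce sulfate to sulfide and build it into homocysteine, methionine and cysteine. Of 38 measured genes 2 fell and none rose, with a median of -0.28, and 24 (63.2%, against 5.80% of all genes) were lower at an unadjusted p under 0.05. In all, 36 lay below 0 (94.7%, against 58.3% of all genes), and 36 did so after quantile normalisation. In 29 of the 38 genes the Dctr1_Con arrays all lay below the WT_Con arrays (76.3%, against 10.3% of all genes), and after quantile normalisation in 23 (60.5%, against 7.59%). The list median was -0.35 on slide 1. Between 0 and 7 genes of the list were called lower under the alternatives, with 0 without slide 1, with the 6 arrays alone, and without Dctr1_Con replicate 1 or 3 or WT_Con replicate 1 or 3.

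MET3, the ATP sulfurylase gene of sulfate activation, was at -1.70, -1.37 and -1.44 in Dctr1_Con, against -0.76, -0.96 and -0.68 in WT_Con. The groups did not overlap, and MET3 fell by 0.71 (log2, SE 0.12, adjusted p = 0.0293, limma), with a difference of -0.94 on slide 1. MET2, which activates homoserine for sulfur transfer, was at -1.53, -1.41 and -1.56 in Dctr1_Con, against -0.50, -0.96 and -0.58 in WT_Con. It fell by 0.82 (SE 0.15, adjusted p = 0.0466, limma). Both calls ended without Dctr1_Con replicate 1 or 3 and without WT_Con replicate 1 or 3, and the call of MET2 also without Dctr1_Con replicate 2. Next by p were the sulfate permease gene SUL2 (-0.61 ± 0.12) and MET28 (-0.69 ± 0.14), which codes for a cofactor of the activator Met4 (adjusted p = 0.0647 for each, limma), both named after their values were seen. The cofactor gene MET32 (-0.58 ± 0.13) and MET14 (-0.65 ± 0.16), of the step after Met3, were not called either. MET4 itself was at -0.06 (-0.22 to 0.10).

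Serine and formate genes were among the other falls. SER33, which codes for an enzyme at the start of serine synthesis, averaged 0.63 ± 0.07 in Dctr1_Con, against 1.02 ± 0.08 in WT_Con (SD, n = 3 each). The groups did not overlap, and SER33 fell by 0.39 (log2, SE 0.07, adjusted p = 0.0309, limma), a call that ended when any array but WT_Con replicate 2 was left out. Its paralog SER3 was at -0.22 ± 0.10 (adjusted p = 0.636, limma). FDH1, the formate dehydrogenase gene, was at -4.78, -5.00 and -4.93 in Dctr1_Con, against -3.85, -4.12 and -3.94 in WT_Con. It fell by 0.93 (SE 0.16, adjusted p = 0.0309, limma), and its other 2 probes gave -0.90 and -0.97. A near-identical copy of FDH1 in yeast leaves it uncertain as a single gene, and its call was lost when any 1 of the 6 arrays was left out. FDH1 kept its call with the 6 arrays fitted alone.

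COX3 was the only called gene among those measured from mitochondrial DNA. The 8 protein genes of mitochondrial DNA code for core subunits of cytochrome c oxidase, cytochrome b, ATP synthase subunits and a ribosomal protein. Of these 1 fell and none rose, and all 8 lay below 0, against 58.3% of all genes, with a median of -0.45. By limma, 4 of the 8 were lower at an unadjusted p under 0.05, against 5.80% of all genes. In 3 (37.5%, against 10.3% of all genes) the groups did not overlap. The count below 0 was 6 of 8 after quantile normalisation and with slide as a fixed or random block. The median was -0.22 with the fixed block. COX3, a catalytic core subunit gene of cytochrome c oxidase, was at -4.24, -4.12 and -4.10 in Dctr1_Con, against -3.00, -2.92 and -3.01 in WT_Con. Arrays of the same strain differed little beside the gap between the strains. The fall of COX3 was -1.18 ± 0.10 (log2, a 2.26-fold decrease, adjusted p = 1.01e-04, limma). Its difference on slide 1 was -1.24.

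The other core subunit genes of the same enzyme did not pass. COX1 was at -0.48 ± 0.16 (adjusted p = 0.358, limma) and COX2, whose product holds a copper centre of the enzyme, was at -0.02 with a 95% interval from -0.43 to 0.39. The ATP synthase gene OLI1 was at -0.48 ± 0.11 (adjusted p = 0.102, limma) and the cytochrome b gene COB at -0.67 ± 0.22 with overlapping groups. ATP6 was at -0.06 (-0.37 to 0.25), ATP8 at -0.42 (-1.08 to 0.24) and VAR1, for the ribosomal protein, at -0.43 (-1.03 to 0.16). The 15 other reading frames of mitochondrial DNA, most of them in introns, had a median of -0.26 with none called by limma. At an unadjusted p under 0.05, 2 of the 15 were lower, against 5.80% of all genes. Nuclear genes for cytochrome c oxidase subunits, 9 in all, had a median of -0.01 with none called and none at an unadjusted p under 0.05.

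**Figure D4:**
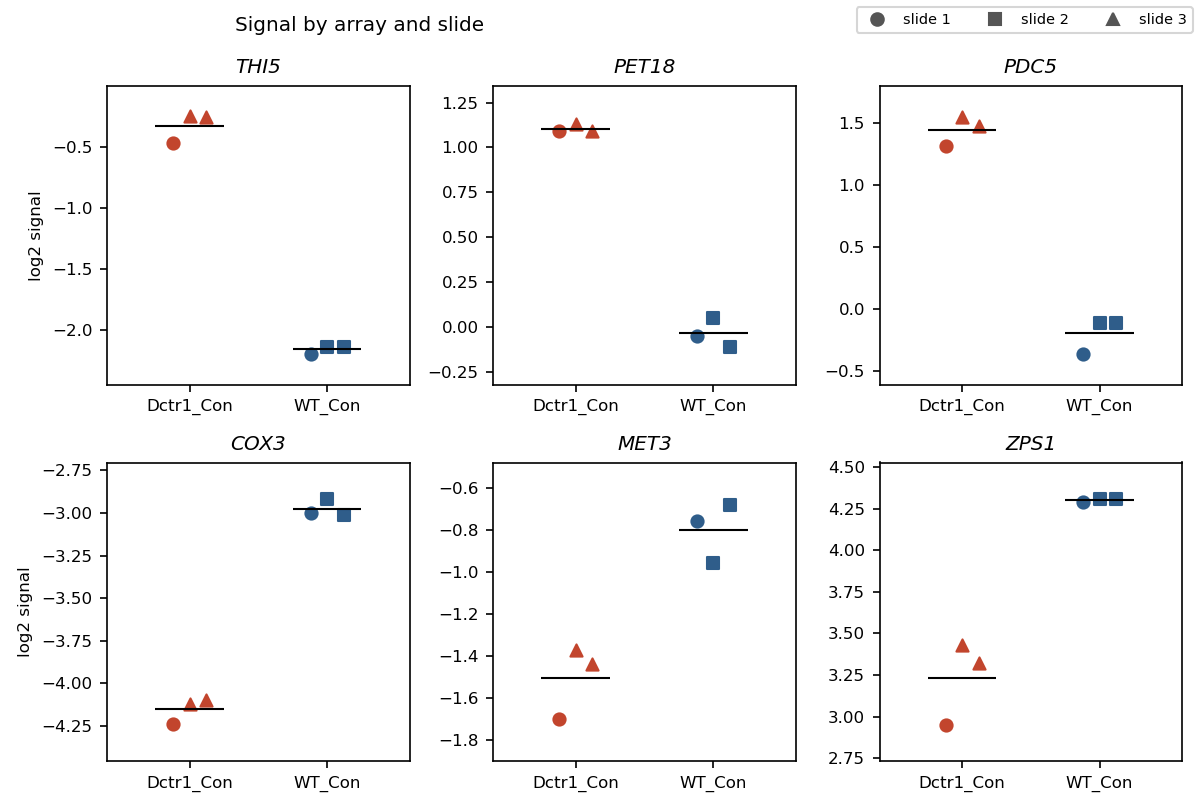
Log2 signal relative to the 75th percentile (y axis) of 6 genes on the 3 Dctr1_Con arrays (left in each panel) and the 3 WT_Con arrays (right), with the slide of each array as the symbol and the mean as a bar. Slide 1 (circles) holds both strains. In the pair on slide 1 THI5, PET18 and PDC5 are higher and COX3, MET3 and ZPS1 lower in Dctr1_Con, as on the other slides.

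The pair of arrays on slide 1 gave the same direction as the fit for all 30 called genes. These 2 arrays are part of the fit and have no replicates, so this is a description. Their differences were 0.78 (PHO3) to 1.43 (SER33) times the fitted ones. With slide as a fixed block, 33 genes were called, 22 of them among the 30, and all 30 kept their direction. Slide 2 held only arrays of BY4741 and slide 3 only arrays of the deletion strain. That fit therefore compares the strains through slide 1 alone, where arrays of the other groups also enter. It is not independent of the pair.

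Copper genes other than CTR1 showed no called change, as the plot of copper genes shows. Of the 6 other genes of the copper uptake list none was called by limma and none had an unadjusted p under 0.05. CTR3, for the other high-affinity copper transporter of the plasma membrane, was at -4.26, -4.14 and -4.22 in Dctr1_Con, against -4.05, -4.33 and -4.12 in WT_Con. The groups overlapped and the difference was -0.04 (95% interval -0.23 to 0.14). Whether either strain makes a working Ctr3 transporter was not tested, and the array signal does not show it. FRE1 was at -3.13, -2.61 and -2.70 in Dctr1_Con, against -3.18, -3.05 and -2.88 in WT_Con, with a difference of 0.22 (-0.11 to 0.55). FRE7, a further reductase gene, was at 0.04 (-0.22 to 0.30), and IRC7 (0.11), REE1 (0.13) and the regulator gene MAC1 (0.04) had intervals that include 0.

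Copper detoxification genes were not called either, with 0 of 5 by limma. At an unadjusted p under 0.05, 1 of the 5 was higher and 2 were lower, against 2.31% and 5.80% of all genes. The metallothionein gene CUP1-1 was at 5.47, 5.20 and 5.22 in Dctr1_Con, against 5.76, 5.52 and 5.52 in WT_Con. Its copy CUP1-2, which may share its signal, was at 5.31, 5.05 and 5.10 in Dctr1_Con, against 5.61, 5.39 and 5.45 in WT_Con. In both the Dctr1_Con arrays all lay below the WT_Con arrays, by small margins. The difference of CUP1-2 was -0.33 (-0.63 to -0.03, adjusted p = 0.534, limma) and that of CUP1-1 -0.30 (-0.61 to 0.00). The metallothionein gene CRS5 was at 0.19 ± 0.08, SOD1 at -0.08 (-0.37 to 0.22) and CUP2 at 0.11 (-0.19 to 0.40).

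Genes of copper delivery and copper enzymes had a median of 0.03 over 17 genes, with none called by limma. At an unadjusted p under 0.05, 2 of the 17 were higher, against 2.31% of all genes. FET3, the copper-dependent oxidase gene of iron uptake, was at 3.43, 3.33 and 3.35 in Dctr1_Con, against 3.15, 3.14 and 3.12 in WT_Con. The groups did not overlap, with a difference of 0.24 (0.09 to 0.38, adjusted p = 0.235, limma). COX17, for the copper carrier to mitochondria, was at 0.18 (0.00 to 0.37), and CCC2, for the pump that loads Fet3, at 0.14 (-0.03 to 0.32). The chaperone genes ATX1 (0.03) and CCS1 (0.02) and the vacuolar copper exporter gene CTR2 (0.00) were close to 0. PIC2, for a mitochondrial copper carrier, had the widest interval of the list (-0.56 to 1.31), with 0.96, -0.47 and 0.12 in Dctr1_Con and 0.13, -0.49 and -0.16 in WT_Con.

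**Figure D5:**
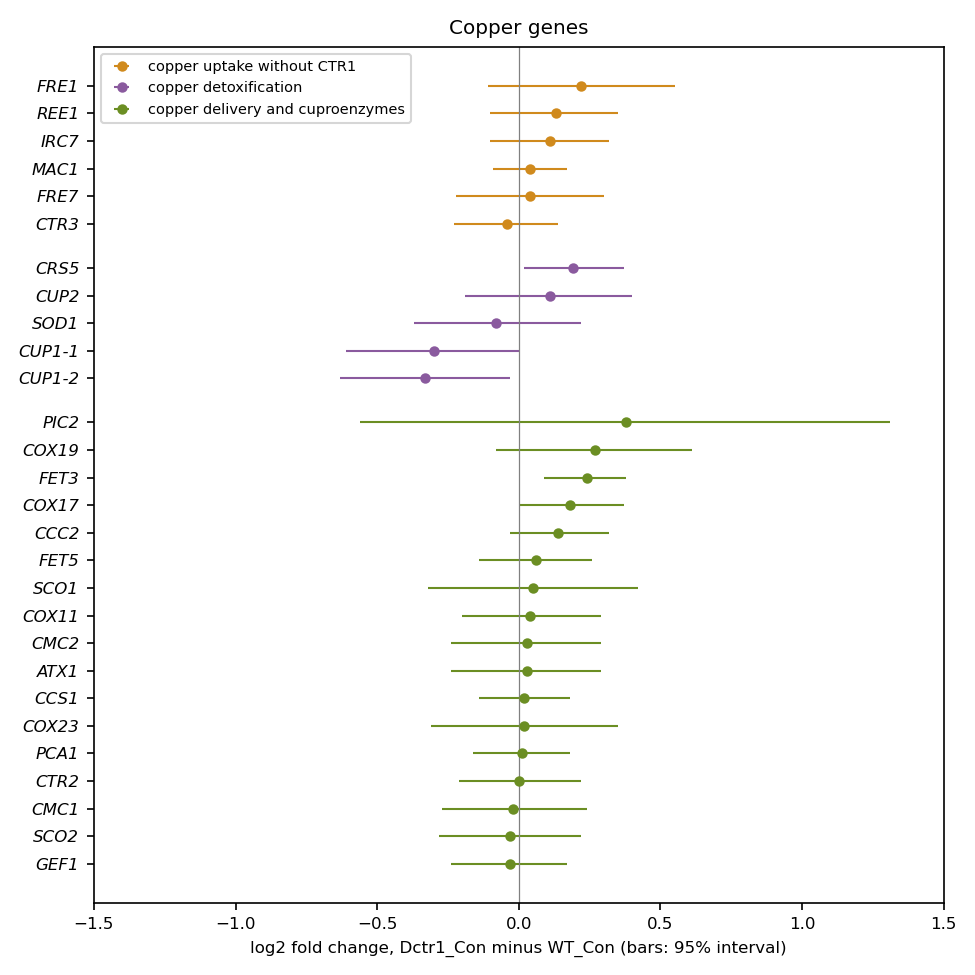
Log2 fold change of Dctr1_Con over WT_Con with its 95% interval (x axis) for copper uptake genes without CTR1, copper detoxification genes and genes of copper delivery and copper enzymes (y axis). No gene shown was called, and the intervals of most genes include 0. Those of FET3, CRS5 and, narrowly, COX17 lie above 0, those of CUP1-2 and, narrowly, CUP1-1 lie below 0, and that of PIC2 is the widest.

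Iron uptake genes, several of which depend on copper through Fet3, were also not called. The 22 genes of reductive iron uptake and its regulation had a median of 0.11. At an unadjusted p under 0.05, 5 of the 22 were higher and 1 was lower, against 2.31% and 5.80% of all genes. FRE2, a ferric reductase gene, was at 0.46 ± 0.13 (adjusted p = 0.253, limma). The 7 genes of siderophore uptake, which bring in iron bound to chelators, had a median of 0.37, and 6 of them lay above 0. ARN2 was at -0.67, -0.94 and -0.88 in Dctr1_Con, against -1.45, -1.49 and -1.59 in WT_Con. Its groups did not overlap, with a difference of 0.68 ± 0.14 (adjusted p = 0.0668, limma). ARN1 was at 0.40 ± 0.13, and in 4 of the 7 genes every Dctr1_Con array lay above every WT_Con array (57.1%, against 4.32% of all genes). With normexp background correction, with the 6 arrays alone and in the authors' deposited log2 values 1 of the 7 was called higher.

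Zinc genes of the Zap1 type lay mostly below 0. Zap1 switches on zinc uptake and zinc-sparing genes when zinc is short. Of 22 genes none was called by limma, 8 were lower (36.4%, against 5.80% of all genes) and none higher at an unadjusted p under 0.05. In all, 20 lay below 0 (90.9%, against 58.3% of all genes), and the median was -0.22. In 10 (45.5%, against 10.3% of all genes) the Dctr1_Con arrays all lay below the WT_Con arrays. The median was -0.24 on slide 1 and -0.36 with slide as a fixed block. ZPS1, a zinc-regulated cell surface gene, was at 2.95, 3.43 and 3.32 in Dctr1_Con, against 4.29, 4.31 and 4.31 in WT_Con. The WT_Con arrays were nearly equal and all lay above Dctr1_Con, and the difference was -1.07 ± 0.25 (adjusted p = 0.131, limma). ADH4, a zinc-regulated alcohol dehydrogenase gene, was at -0.86 ± 0.27 (adjusted p = 0.341, limma), and RTC4 at -0.39 ± 0.10 (adjusted p = 0.196, limma). The SD of ADH4 was 0.08 in Dctr1_Con and 0.06 in WT_Con, and its SE also holds the spread of the other groups. The zinc transporter gene ZRT1 was at -0.37 ± 0.11 and ZAP1 at -0.30 ± 0.11. ADH4, ZRT1 and ZAP1 were named after their values were seen. With the 6 arrays fitted alone, and also without slide 1, 3 of the 22 genes were called lower.

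IMD2 rose apart from these groups. It codes for IMP dehydrogenase, the entry to guanine nucleotide synthesis, and belongs to a family whose members may share signal. IMD2 was at -0.40, -0.56 and -0.43 in Dctr1_Con, against -1.52, -1.40 and -1.41 in WT_Con. Every Dctr1_Con array lay far above the WT_Con arrays, and IMD2 rose by 0.98 ± 0.09 (1.98-fold, adjusted p = 1.96e-04, limma). The related genes IMD3 and IMD4 were at 0.02 ± 0.09 and 0.20 ± 0.18. The related reading frames YAR073W (0.19 ± 0.15) and YAR075W (0.44 ± 0.23), both named after their values were seen, were not called. With the replicate block YAR075W had an adjusted p of 0.0398 (limma). In the purine list IMD2 was the only called gene of 16, and the median was -0.18. In 9 genes the Dctr1_Con arrays all lay below the WT_Con arrays (56.2%, against 10.3% of all genes). After quantile normalisation they did so in 5 (31.2%, against 7.59% of all genes).

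The remaining 6 called genes belong to no list. EEB1, for an enzyme of ethyl ester synthesis, rose by 0.62 ± 0.10 (adjusted p = 0.0172, limma). AME1, of the kinetochore, rose by 0.44 ± 0.07, and PHD1, a regulator of filamentous growth, by 0.45 ± 0.08. UTH1, of the cell wall and mitochondria, fell by 0.36 (log2, SE 0.06). RNP1, with RNA-binding motifs, fell by 0.59 (SE 0.10), and YLR415C, without a settled function, by 0.43 (SE 0.06). Each of these 6 calls was lost in 7 to 12 of the alternatives tried. Leaving out Dctr1_Con replicate 1 or 3 or WT_Con replicate 1 or 3 ended those of EEB1, AME1, PHD1, UTH1 and RNP1. Leaving out Dctr1_Con replicate 2 also ended those of UTH1 and RNP1, and leaving out WT_Con replicate 2 those of AME1 and UTH1. That of YLR415C held without each array but ended without slide 1 and after quantile normalisation.

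Of the 54 lists, 45 held no called gene by limma. They cover 866 genes, of which 28 were higher (3.23%) and 50 lower (5.77%) at an unadjusted p under 0.05, shares near the 2.31% and 5.80% of all genes. Their medians ranged from -0.26 to 0.37. Cytosolic ribosomal proteins had a median of -0.03 over 137 genes, mitochondrial ribosomal proteins 0.03 over 56, heat shock chaperones 0.06 over 16, and heme synthesis genes 0.00 over 8. In the general stress list the median was -0.12 over 30 genes, with HSP12 at -0.72 ± 0.18 and ALD3 at -0.70 ± 0.16 (adjusted p = 0.168 and 0.118, limma). HSP30, of the same list, lay the other way, at 2.14 ± 0.83 with overlapping groups (adjusted p = 0.467, limma). By limma, 4 of the 30 were lower and 1 was higher at an unadjusted p under 0.05.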

How the data were processed

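Total RNA of yeast cultures was measured on single-colour Agilent arrays. The authors quantified the scans with Agilent Feature Extraction 10.7.1.1, per the file headers and the submitters' processing notes, and the headers name the annotation sacCer1. The deposited processed signal is an intensity that the software had corrected for background and spatial trend, with no scaling between arrays. The deposited median spot and background intensity values served for the normexp alternative (offset 50). Other deposited columns are 0 or 1 flags, for signal well above background, saturation (0 spots on these 6 arrays) and outliers, which were dropped. The authors' series matrix holds 5202 deposited log2 values per array, 5191 of gene probes, with a column median of 11.69. The choice of its probes is unknown.

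An array held 13048 spots: 536 controls and pairs of spots for 6256 gene probes. Log2 signals minus the array's 75th percentile were averaged over the spots, and the brightest probe stood for each of 6228 genes. RefSeq's gene table (assembly R64), used for names, chromosome and gene order only, named 5740 of them, and 488 kept the array's name. Group means of all 12 arrays were fitted with limma 3.58.1 in R 4.3.3 (8 residual degrees of freedom), with no block, and genes with an adjusted p under 0.05 were called. The SE of a gene therefore also holds its spread in the groups not compared here. For genes not well above background in a group, the bound took the higher of the probe's own signal and the dimmest probe well above background on each array. On simulated data with 6228 genes and known changes of 1 log2 unit, 96% of rises and 94% of falls were recovered, with 5 false calls. The simulation held no slide effect and no change smaller than 1 log2 unit, so it does not show how such changes fare in these data. P-values measure the spread between these cultures, which may in part be technical, and the number of arrays limits the precision.

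The members and lists were chosen with earlier results of these data known, so lists carry no test. The genes named were CTR1, its neighbours, the markers, all called genes, all copper and mitochondrially encoded protein genes, and from other lists the called genes or the 2 with the smallest p. Other list members named in the text, and the direct neighbours of called genes, were chosen after their values were seen. Replicate numbers were not taken to pair the arrays. Scaling, background, filters, spots, slide, block and left-out replicates were varied. No sequences are given.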

Additional observations from a re-analysis of the deposited data

How the results depend on the processing

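The number of called genes was 30 (20 higher, 10 lower) as reported and 26 to 36 under other scaling, background, filters, spots, probes, moderation, the authors' deposited log2 values, the 6 arrays alone or slide as a block. Without slide 1 it was 21, with 15 of the 30 genes shared. Leaving out 1 replicate gave 18 to 32: 19 without Dctr1_Con replicate 1, 18 without Dctr1_Con replicate 3, 18 without WT_Con replicate 1 and 18 without WT_Con replicate 3. No called gene changed sign under any of these. Of the 30 genes, 13 kept their call wherever they were tested: CTR1, YPR123C, PET18, THI5, THI11, THI12, THI13, THI21, SNZ2, SNZ3, PDC5, IMD2 and COX3. The other 17 lost it somewhere, and the cause was not tested.

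With a replicate block 86 genes were called (34 higher, 52 lower), all 30 among them, and 30 with the block on the 6 arrays alone, 18 of them shared. Among the genes called with the block on all arrays were 7 lower sulfur and 2 lower zinc genes, THI73 (adjusted p = 0.00573), ARN2 (0.0332), PHO12 (0.0309) and GIT1 (0.034), all by limma. Deviations of same-numbered arrays from their group means correlated at 0.508, 0.265 and 0.099 over all genes, and at 0.554, 0.295 and 0.134 over genes above background. Dctr1_Con replicate 3 correlated best with WT_Con replicate 2 (0.234), and the labels do not say that a number marks a shared experiment, so the numbers were not taken as pairs.

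With 3 arrays per group the median half-width of a gene's 95% interval was 0.217 log2 units. That interval is not adjusted for the number of genes, so a call mostly needs a larger difference. In copper, iron and zinc genes FET3 (0.24), ARN2 (0.68) and ZPS1 (-1.07) exceeded that width and were not called, so changes of such sizes can be missed. In Dctr1_Con the CTR1 signal was not well above background, so its fold is a lower bound, and one for the main processing only.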

Other observations

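Phosphate genes held several large negative and smaller positive differences that were not called. Of 19 genes in the phosphate list none was called by limma, and the median was -0.06. At an unadjusted p under 0.05, 7 of the 19 were lower and 2 higher, against 5.80% and 2.31% of all genes. PHO84, the high-affinity phosphate transporter gene, was at -1.82, -0.27 and -0.64 in Dctr1_Con, against -0.24, 0.48 and 0.34 in WT_Con. The Dctr1_Con arrays all lay below the WT_Con arrays but spread widely among themselves, and the difference was -1.10 ± 0.45 (adjusted p = 0.534, limma). PHO89, for a sodium-coupled phosphate transporter, was at -1.10 ± 0.31, and SPL2, which acts on low-affinity phosphate uptake, at -1.17 ± 0.39. GIT1, a glycerophosphoinositol transporter gene, was at -0.48 ± 0.09 (adjusted p = 0.0647, limma). The acid phosphatase genes PHO12 (0.45 ± 0.10) and PHO11 (0.35 ± 0.09), near-identical copies, lay the other way, with groups that did not overlap (adjusted p = 0.0987 and 0.176, limma).

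The largest difference without a call rested on unlike replicates. HSP30, a plasma membrane stress gene, was at 1.57, -2.64 and 0.24 in Dctr1_Con, against -2.55, -1.75 and -2.94 in WT_Con, so Dctr1_Con replicate 2 lay within the WT_Con range. Its difference was 2.14 ± 0.83 (adjusted p = 0.467, limma). ISF1 was at -1.22, -5.03 and -2.86 in Dctr1_Con, against -5.07, -4.44 and -5.32 in WT_Con. Dctr1_Con replicate 1 was likewise its highest array and replicate 2 its lowest of that group. The glucose transporter gene HXT4 was at 1.70, 0.32 and 1.23 in Dctr1_Con, against -0.24, -0.04 and -0.18 in WT_Con, and MTH1, a regulator of such transporters, at -1.35, -3.13 and -2.24 in Dctr1_Con, against -3.41, -3.54 and -3.27 in WT_Con. In both genes the groups did not overlap, replicate 1 was the highest array of Dctr1_Con and replicate 2 the lowest, and neither was called (adjusted p = 0.132 and 0.341, limma). In all, 30 genes differed by more than 1 log2 unit and 20 of them were not called.

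The thiamine genes can also be read beside the other 2 groups of the study, whose arrays lay in column 2 of the slides. PET18 averaged -1.91 in the deletion strain with CTR1D300, against 1.11 in Dctr1_Con, and -0.06 in BY4741 with over-expressed CTR1, against -0.04 in WT_Con. THI73 averaged -2.69 with CTR1D300, against 1.09 in Dctr1_Con. Not every thiamine gene was far lower with CTR1D300. THI3 averaged -1.25 there, against -0.76 in Dctr1_Con and -1.33 in WT_Con, and THI72 was higher there (-3.59, against -4.28 in Dctr1_Con). The marker LEU2 also differed, at -0.79 with CTR1D300, against 5.59 in Dctr1_Con. Slide column and construct cannot be told apart in these values. Except GIT1 and PHO12, the genes of these observations were chosen after their values were seen.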
